A study of Mus musculus with 8 samples.

Results

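The genes described here encode the 7 subunits of the leukocyte integrins α4β1, α4β7, αMβ2, αLβ2 and αXβ2, the selectin ligand PSGL-1 and the integrin ligand ICAM-1. They were chosen by symbol, and the Ensembl identifiers of all 9 (Itga4, Itgb1, Itgb7, Itgam, Itgal, Itgb2, Itgax, Selplg and Icam1) were found among the 15917 genes of the deposited count table. All 9 passed the filter on low counts, and each had at least 947 reads in every library.

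Messenger RNA was sequenced in eosinophils, granulocytes of type 2 immunity, isolated from the blood of C57BL/6 IL-5 Tg mice of line NJ.1638, in which eosinophils are abundant because IL-5 is overproduced. The genotype label of all 8 samples reads WT, and the labels give neither the promoter of the transgene nor the age or sex of the animals. Cells bearing CD90 or B220 were depleted with beads, purity by stain was above 97%, and the cells were cultured for 18 h. The first experiment held the groups CN (no cytokine added) and E1 (15 ng/mL IFN-gamma and TNF-alpha), and the second held E0, given IL-5 at 10 ng/mL, and E2, given the same IL-5 plus GM-CSF and IL-4, each also at 10 ng/mL, and IL-33 at 30 ng/mL. Each group had 2 libraries. E1 was compared with CN and E2 with E0, each within its own experiment, so E1 shows the addition of the type 1 cytokines to medium and E2 the addition of 3 cytokines to IL-5.

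Integrins are pairs of an α and a β chain that bind matrix proteins or receptors on other cells, and they need an inside-out signal through Rap1, talin and kindlin to bind firmly. A blood eosinophil rolls on endothelium through PSGL-1, which P-selectin binds once the ligand carries sialylated, fucosylated sugars and sulphated tyrosines. It then arrests through α4β1 on VCAM-1, α4β7 on MAdCAM-1 in the gut, and αLβ2 and αMβ2 on ICAM-1. ICAM-1 is itself induced by inflammatory cytokines in many cells.

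**Figure D1:**
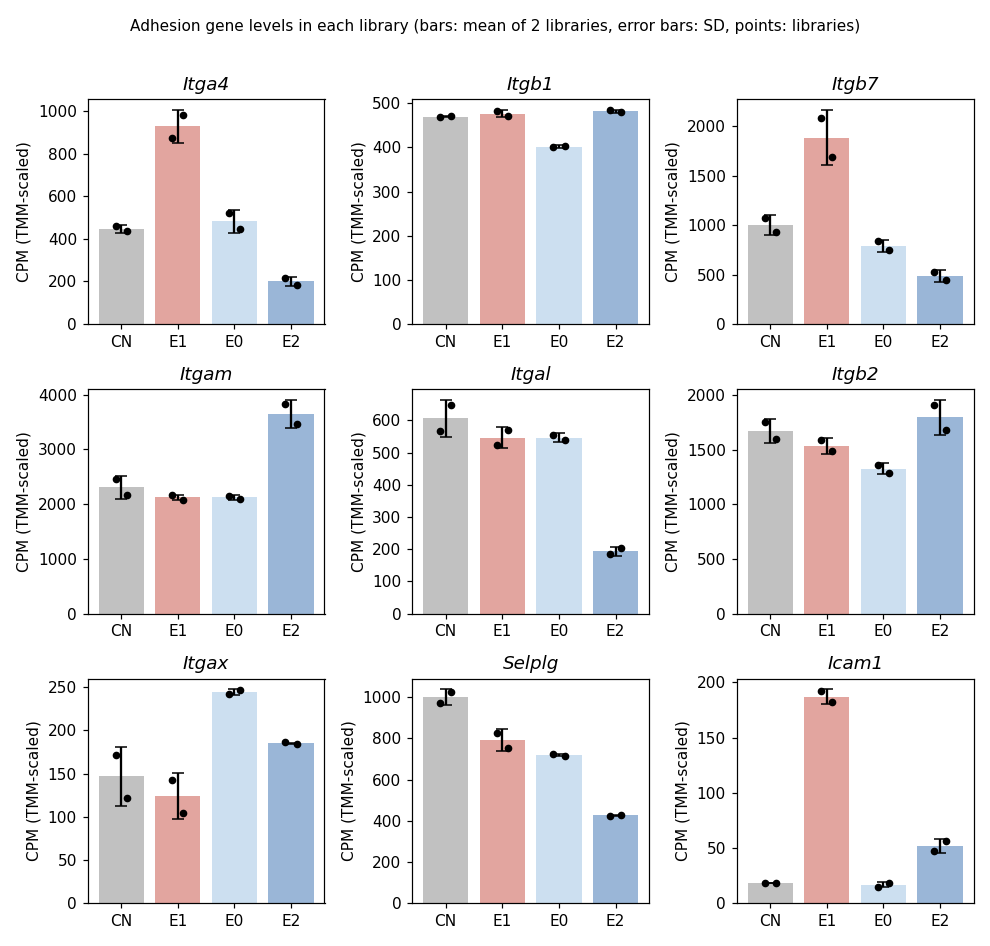
Level of each of the 9 genes in CPM (counts scaled to a common library size, with TMM factors) in the groups CN, E1, E0 and E2. Bars show the mean of 2 libraries, error bars the SD and points the libraries; Icam1 stood at 182 to 192 CPM in E1 and at 15.2 to 56.6 CPM elsewhere, and Itgam at 3465 to 3834 CPM in E2 and at 2085 to 2456 elsewhere.

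Promoters of 6 of the 9 genes (Itga4, Itgb1, Itgb7, Itgam, Itgax and Icam1) were found in RefSeq on GRCm38.p6, each running from 250 bases before to 50 bases after the start. Promoters of Itgal, Itgb2 and Selplg were not used here. The same 5 motifs were searched on both strands of each. They were the spaced palindrome bound by STAT6 (TTCNNNNGAA, in 6.95% of all 32851 promoters of that length), the interferon element ISRE (GAAANNGAAA, 3.44%), NF-kappaB by its consensus (4.51%), the core of the myeloid factor PU.1 (GAGGAA, 28.3%) and the GC box (GGGCGG, 35.7%). The 5 promoters printed here are that of Icam1, called higher in both experiments, those of Itga4 and Itgb7, which changed alike, and those of the neighbours Itgam and Itgax, which did not. Capitals mark every match to these motifs.

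Icam1, chr9:21015690-21015989, plus strand: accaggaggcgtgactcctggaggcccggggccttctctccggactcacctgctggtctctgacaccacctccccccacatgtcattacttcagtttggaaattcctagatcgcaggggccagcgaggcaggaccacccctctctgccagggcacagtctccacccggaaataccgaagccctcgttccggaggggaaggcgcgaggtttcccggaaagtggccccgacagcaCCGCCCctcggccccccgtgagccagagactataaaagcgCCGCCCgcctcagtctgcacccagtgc
Itga4, chr2:79255176-79255475, plus strand: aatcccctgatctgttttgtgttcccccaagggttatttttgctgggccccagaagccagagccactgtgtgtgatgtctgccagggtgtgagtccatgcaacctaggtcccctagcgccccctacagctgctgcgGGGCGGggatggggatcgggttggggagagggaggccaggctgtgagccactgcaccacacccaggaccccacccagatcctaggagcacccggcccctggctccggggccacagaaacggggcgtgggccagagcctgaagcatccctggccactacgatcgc
Itgb7, chr15:102231886-102232185, minus strand: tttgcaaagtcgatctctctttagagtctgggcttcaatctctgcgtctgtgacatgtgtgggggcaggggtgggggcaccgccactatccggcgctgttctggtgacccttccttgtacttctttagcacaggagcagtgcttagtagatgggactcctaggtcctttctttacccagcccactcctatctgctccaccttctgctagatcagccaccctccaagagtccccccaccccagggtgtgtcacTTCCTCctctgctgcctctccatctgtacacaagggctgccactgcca
Itgam, chr7:128062390-128062689, plus strand: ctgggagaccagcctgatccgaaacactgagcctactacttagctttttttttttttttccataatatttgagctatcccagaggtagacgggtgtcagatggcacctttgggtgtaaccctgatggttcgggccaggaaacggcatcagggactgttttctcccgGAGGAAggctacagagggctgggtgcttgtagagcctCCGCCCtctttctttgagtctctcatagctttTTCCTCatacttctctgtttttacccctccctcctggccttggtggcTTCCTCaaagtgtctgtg
Itgax, chr7:128129300-128129599, plus strand: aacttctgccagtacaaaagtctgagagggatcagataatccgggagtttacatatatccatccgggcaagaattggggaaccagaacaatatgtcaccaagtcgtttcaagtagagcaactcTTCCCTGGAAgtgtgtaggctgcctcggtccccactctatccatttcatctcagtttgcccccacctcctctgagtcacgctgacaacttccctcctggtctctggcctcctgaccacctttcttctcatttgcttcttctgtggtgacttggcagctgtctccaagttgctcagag

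Of the 5 motifs, the Icam1 promoter matched the GC box alone, at -17 to -12 and 24 to 29 from the start. The interferon-gamma element GAS was not among the 5, and matches to it were not counted in any promoter. The Icam1 window holds the letters ttcccggaa, which have the GAS form and stand in lower case above. It also holds the letters tggaaattcc, which the NF-kappaB consensus used here did not match and which stand in lower case too. Looser forms of the 5 motifs were not counted in any promoter. Lower-case letters therefore do not show that such elements are absent. Itgax had the STAT6 form at -127 to -118, the one match to it among the 6 promoters. Itgam had 3 PU.1 cores, at -84 to -79, -15 to -10 and 33 to 38, and a GC box at -47 to -42. Itga4 held a GC box alone and Itgb7 a PU.1 core alone at 3 to 8, so that these 2 genes, which changed alike, shared no match to the 5 motifs in these windows. Itgb1 held a PU.1 core at -9 to -4 and a GC box. A match describes the letters of the window and is not evidence of binding.

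Library totals ran between 60809057 and 95065752 counts, and replicates ranked the genes with Spearman correlations across genes of 0.9921 to 0.9946. The labels do not say whether replicates came from separate animals or cultures, so p-values measure only the spread between these samples. Replicate 1 of every group held Y-linked transcripts (Ddx3y at 62.5 to 95.6 CPM, and 0 in every replicate 2) and replicate 2 held Xist at 796 to 1142 CPM. The 2 libraries of a group thus came from animals of different sex and are not repeats of the same sample. This spread includes a difference of sex, and the number of animals behind each library is not given. The summed level of the 12 eosinophil markers was 13502 to 14516 CPM in CN and 10580 to 12168 in E1, then 12298 to 12480 in E0 and 11330 to 11406 in E2. Of these 12, none was called higher and 2 lower (16.7%) in E1 versus CN, against 9.19% and 8.08% of all genes. In E2 versus E0, 3 were called higher (25%) and 7 lower (58.3%), against 17% and 18.5% of all genes. Siglecf and Ccr3 were at 701 CPM or more in every library, though Ccr3 went from 2590 and 2561 CPM in E0 to 1191 and 1318 in E2. The granule gene Epx was at 57.4 and 74.4 CPM in CN, 62.5 and 60.0 CPM in E1, 53.1 and 23.5 CPM in E0, and 15.2 and 7.87 CPM in E2. Markers of other cells were present at lower sums, with no listed marker in the table at 0 in every library. Those of neutrophils summed to 2787 to 3138 CPM in CN, 1511 to 1961 in E1, 2915 to 3627 in E0 and 997 to 1404 in E2. Of these 13, 2 were called higher (15.4%) and 6 lower (46.2%) in E1 versus CN, with Ly6g at a mean of 6.83 CPM in CN and 63.2 in E1. In E2 versus E0, none was called higher and 6 lower (46.2%), and Retnlg went from a mean of 1163 CPM in E0 to 25.4 in E2. Those of monocytes, macrophages and dendritic cells summed to 944 to 1061 CPM in CN, 5245 to 5570 in E1, where Ly6c2 alone made 3784 to 4214, 1052 to 1101 in E0 and 1684 to 1756 in E2. Of these 16, 7 were called higher and 3 lower in E1 versus CN, with a median of 0.70. In E2 versus E0, 6 were called higher (37.5%) and 9 lower (56.2%), against 17% and 18.5% of all genes, with a median of -1.01. The higher sum in E2 went with Csf1r (mean 417 CPM in E0 and 794 in E2) and Adgre4 (496 and 833). NK cell markers summed to 12.4 to 14.2 CPM in CN, 10.4 to 13.2 in E1, 31.0 to 33.9 in E0 and 46.8 to 50.4 in E2, and 6 of the 7 were called higher in E0 versus CN (13.5% of all genes). In E2 versus E0, 2 of the 7 were called higher (17% of all genes) and none lower, with a median log2 fold change of -0.01. Gzma, among the 7, went from a mean of 12.1 CPM in E0 to 29.6 in E2. T cell markers summed to 4.33 to 6.31 CPM in CN and E1, 7.28 to 7.98 in E0 and 11.7 to 12.5 in E2. B cell markers summed to 222 to 274 CPM in CN, E1 and E0 and to 146 to 180 in E2. Their lower sum in E2 went with Ighm, at a mean of 234 CPM in E0 and 111 in E2. Of the 7, 3 were called higher and 1 lower in E2 versus E0 (17% and 18.5% of all genes), with a median of 0.40. Basophil and mast cell markers summed to 66.8 to 74.6 CPM in CN, 45.9 to 50.8 in E1, 46.4 to 57.5 in E0 and 67.2 to 89.4 in E2. Of the marker sums given here, those of B and NK cells overlapped between E1 and CN, and none overlapped between E2 and E0. All 9 genes are also transcribed by other leukocytes, and the part of such cells in the results was not tested. In bulk samples, fewer cells of a type and less RNA per cell cannot be told apart.

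With IFN-gamma and TNF-alpha, 3 of the 9 transcripts rose, namely Icam1, Itga4 and Itgb7, and 1 fell, Selplg, while neither Itgb2 nor its 3 α chains passed the test. Calls rest on edgeR's quasi-likelihood test over 15913 genes, with Benjamini-Hochberg adjustment and a threshold of 0.05. The 4 of 9 called stand against 17.3% of all genes called in E1 versus CN (9.19% higher, 8.08% lower). The median log2 fold change of the 9 was -0.12 and that of all genes -0.01. The libraries of the 2 groups did not overlap for 7 of the 9, as for 54.1% of all genes. With library totals in place of TMM the higher share of all calls went from 53.2% to 38.6% and the median of all genes to -0.105, so that small changes in this comparison depend on the scaling. That setting turned the uncalled Itgb1 from 0.02 to -0.07.

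With the type 2 mixture, 8 of the 9 changed against IL-5 alone, with Icam1, Itgam, Itgb2 and Itgb1 higher and Itgal, Itga4, Selplg and Itgb7 lower. In E2 versus E0, 35.5% of all genes were called (17% higher, 18.5% lower). The libraries did not overlap for any of the 9, as for 73.1% of all genes, and the median was -0.40 for the 9 and -0.02 for all genes. The direct test of the difference between the 2 responses called 7 of the 9 (2 higher and 5 lower), against 25.2% of all genes (11.3% higher and 14% lower).

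**Figure D2:**
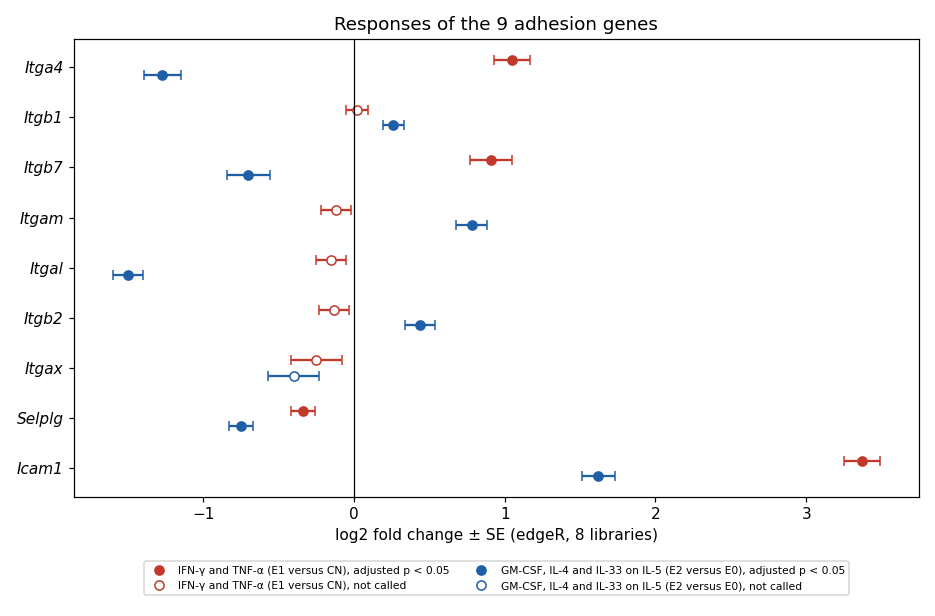
Log2 fold change with its standard error for each gene in E1 versus CN (red) and E2 versus E0 (blue), from one edgeR fit over 8 libraries. Filled points passed an adjusted p of 0.05; Itga4 and Itgb7 lie to the right of 0 in red and to the left in blue, and Icam1 lies to the right in both.

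Itga4 (ENSMUSG00000027009, mm10 chromosome 2, 79255426 to 79333123, plus strand) encodes α4, the chain that pairs with β1 or β7. Its level was 461 and 435 CPM in CN, 875 and 984 CPM in E1, 521 and 444 CPM in E0, and 216 and 184 CPM in E2. Both E1 libraries stood above and both E2 libraries below all others, and CN and E0 overlapped. The log2 fold change was 1.05 ± 0.12 (SE) in E1 versus CN (2.07-fold higher, adjusted p = 0.000404, edgeR) and -1.27 ± 0.12 in E2 versus E0 (2.41-fold lower, adjusted p = 0.000133). The responses differed by -2.32 ± 0.16 (adjusted p = 3.9e-05). The 3' exons of Itga4 overlap by 1124 bases, from 79330543 to 79332656, those of Cerkl, a ceramide kinase-like gene on the opposite strand. The shared stretch is 8.0% of the Itga4 exons and 21.3% of the Cerkl exons. The library kit marks strand but the strand setting of the counting is not given in the sources used here, so reads of the 2 genes cannot be told apart in the overlap. Cerkl stood at 78.4 and 66.8 CPM in CN, 170 and 159 CPM in E1, 93.8 and 85.6 CPM in E0, and 37.3 and 32.8 CPM in E2, with log2 fold changes of 1.18 ± 0.10 and -1.36 ± 0.10. It thus rose and fell where Itga4 did, and it was the gene most like Itga4 over the 8 libraries.

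Itgb7 (ENSMUSG00000001281, chromosome 15, 102215995 to 102231944, minus strand) encodes β7, which forms the gut-homing integrin α4β7 with α4. It stood at 1075 and 934 CPM in CN, 2084 and 1687 CPM in E1, 834 and 743 CPM in E0, and 525 and 443 CPM in E2. The 4 groups did not overlap, in the order E1, CN, E0 and E2. It rose by 0.91 ± 0.14 in E1 (1.88-fold, adjusted p = 0.00247, edgeR) and fell by 0.70 ± 0.14 in E2 (1.63-fold, adjusted p = 0.00536). The responses differed by -1.61 ± 0.20 (adjusted p = 0.000701).

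Itgb1 (ENSMUSG00000025809, chromosome 8, 128685654 to 128733200, plus strand) encodes β1, the partner of α4 in VLA-4 and of several matrix-binding α chains. It held the narrowest range of the 9, at 469 and 471 CPM in CN, 482 and 472 CPM in E1, 400 and 404 CPM in E0, and 485 and 480 CPM in E2. E0 was the low group, and the other 3 lay close together, with E1 and E2 overlapping. The E1 difference of 0.02 ± 0.07 was not called (adjusted p = 0.867, edgeR). In E2 it was 0.26 ± 0.07 higher (1.20-fold, adjusted p = 0.0166), a call that was lost when any 1 library of E0 or E2 was left out (adjusted p = 0.105 without E0 replicate 1, 0.0743 without E0 replicate 2, 0.0851 without E2 replicate 1 and 0.0699 without E2 replicate 2). The difference between the responses, 0.24 ± 0.09, was not called (adjusted p = 0.1), and was called with library totals as the scaling (0.32, adjusted p = 0.0482).

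The β7 to β1 balance therefore shifted in opposite directions in the 2 experiments. Per kilobase of the principal transcript, the ratio of Itgb7 to Itgb1 was 3.26 and 2.82 in CN, then 6.15 and 5.08 in E1, then 2.96 and 2.61 in E0, and lastly 1.54 and 1.31 in E2. E1 lay above and E2 below every other library, whereas CN and E0 overlapped. On the log2 scale the ratio differed by 0.88 between E1 and CN (pooled SD 0.17) and by -0.97 between E2 and E0 (pooled SD 0.15). The smallest two-sided p that an exact permutation test of 2 against 2 libraries can give is 0.333, above the threshold, so the ratios are given with their spread and no p. The ratio of Itga4 to the sum of Itgb1 and Itgb7 was 0.0902 and 0.0945 in CN, then 0.0992 and 0.134 in E1, then 0.128 and 0.119 in E0, and lastly 0.0686 and 0.0647 in E2. E2 held the lowest values and CN the next lowest, and E1 overlapped E0. These are ratios of transcripts, and protein pairs were not measured.

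**Figure D3:**
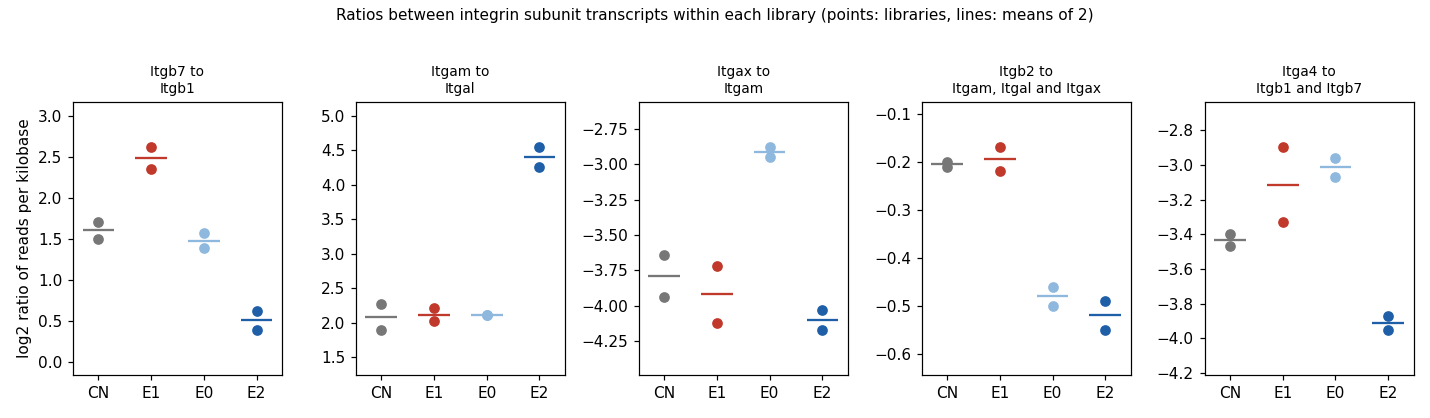
Log2 ratios of reads per kilobase between integrin subunit genes in each library, by group, with lines at the mean of 2 libraries and a separate vertical scale in each panel. The Itgb7 to Itgb1 ratio is highest in E1 and lowest in E2, and the Itgam to Itgal ratio stands apart in E2.

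Itgam (ENSMUSG00000030786, chromosome 7, 128062640 to 128118491, plus strand) encodes αM, known as CD11b, the α chain of the complement receptor Mac-1. It stood at 2456 and 2162 CPM in CN, 2161 and 2085 CPM in E1, 2154 and 2093 CPM in E0, and 3834 and 3465 CPM in E2. Both E2 libraries were above all the rest, and E1 and E0 overlapped. In E2 it was 0.78 ± 0.10 higher (1.72-fold, adjusted p = 0.000772, edgeR), and in E1 the difference of -0.12 ± 0.10 was not called (adjusted p = 0.482). The responses differed by 0.90 ± 0.14 (adjusted p = 0.00262). Gm49368, a gene model on the same strand, shares 3450 bases with Itgam, 68.7% of the Itgam exons. It is not among the genes of the deposited counts, so how reads were split between the 2 models is unknown.

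Itgal (ENSMUSG00000030830, chromosome 7, 127296260 to 127335138, plus strand) encodes αL, the α chain of LFA-1. Its level was 566 and 648 CPM in CN, 523 and 569 CPM in E1, 556 and 538 CPM in E0, and 184 and 204 CPM in E2. The first 3 groups lay close together, with E1 overlapping both others, and E2 was far below. It fell by 1.5 ± 0.10 in E2 (2.82-fold, adjusted p = 2.47e-05, edgeR), the deepest fall of the 9 in E2. The E1 difference of -0.15 ± 0.10 was not called (adjusted p = 0.336), and the responses differed by -1.34 ± 0.14 (adjusted p = 0.000263).

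The 2 α chains of β2 thus moved in opposite directions under the type 2 mixture. Per kilobase, Itgam exceeded Itgal 4.85 and 3.73 times in CN, 4.62 and 4.09 times in E1, 4.33 and 4.34 times in E0, and 23.3 and 19.0 times in E2. The E2 ratios were above all others, by 2.28 on the log2 scale against E0 (4.84-fold, pooled SD 0.15). Between E1 and CN the ratio differed by 0.03 with a pooled SD of 0.21, less than the spread between replicates.

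Itgb2 (ENSMUSG00000000290, chromosome 10, 77530252 to 77565708, plus strand) encodes β2, known as CD18, without which none of these α chains reaches the surface. It stood at 1753 and 1596 CPM in CN, 1585 and 1484 CPM in E1, 1360 and 1290 CPM in E0, and 1910 and 1680 CPM in E2. E0 was the low group, and E2 overlapped CN. It was 0.44 ± 0.10 higher in E2 than in E0 (1.35-fold, adjusted p = 0.0107, edgeR), but not called without E0 replicate 2 (adjusted p = 0.0658) or E2 replicate 1 (adjusted p = 0.0841). The E1 difference of -0.13 ± 0.10 was not called (adjusted p = 0.457). The difference between the responses, 0.56 ± 0.14 (adjusted p = 0.0208), was lost on leaving out CN replicate 1 (0.0694), E1 replicate 2 (0.0508), E0 replicate 1 (0.0534), E0 replicate 2 (0.0746) or E2 replicate 1 (0.0878, all adjusted p). Per kilobase, the ratio of Itgb2 to the sum of Itgam, Itgal and Itgax was 0.868 and 0.867 in CN, then 0.889 and 0.856 in E1, then 0.727 and 0.707 in E0, and lastly 0.710 and 0.681 in E2. It differed by -0.04 on the log2 scale between E2 and E0 (pooled SD 0.04) although the α chains had changed, and separated the 2 experiments.

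Itgax (ENSMUSG00000030789, chromosome 7, 128129547 to 128150657, plus strand) encodes αX, known as CD11c, an α chain best known from dendritic cells and macrophages. It stood at 171 and 122 CPM in CN, 143 and 105 CPM in E1, 242 and 247 CPM in E0, and 186 and 184 CPM in E2. The CN and E1 libraries overlapped, E0 was the highest group, and replicate 1 exceeded replicate 2 in CN and E1. Neither the difference of -0.25 ± 0.17 in E1 (adjusted p = 0.392, edgeR) nor that of -0.40 ± 0.17 in E2 (adjusted p = 0.103) was called. The latter was called with DESeq2 (0.0447), in a fit of the E0 and E2 libraries alone (0.00179), and without CN replicate 1 (0.0415) or CN replicate 2 (0.0454, all adjusted p). The E1 difference turned to 0.03 without CN replicate 1. With the replicate number as a block within each experiment, both differences were called. Itgam and Itgax lie 11.1 kb apart on one strand, and Itgal 727.5 kb before Itgam. In E2 the 3 neighbours changed by 0.78 (Itgam), -0.40 (Itgax, not called) and -1.5 (Itgal), and the ratio of Itgax to Itgam per kilobase went from 0.129 and 0.136 in E0 to 0.0556 and 0.0612 in E2.

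Selplg (ENSMUSG00000048163, chromosome 5, 113818536 to 113832644, minus strand) encodes PSGL-1, the P-selectin ligand. Its level was 972 and 1027 CPM in CN, 828 and 752 CPM in E1, 723 and 714 CPM in E0, and 426 and 429 CPM in E2. The 4 groups did not overlap, with CN highest and E2 lowest. It fell by 0.75 ± 0.08 in E2 (1.68-fold, adjusted p = 0.000303, edgeR) and by 0.34 ± 0.08 in E1 (1.26-fold, adjusted p = 0.0215). The E1 call did not hold without CN replicate 1 (-0.36, adjusted p = 0.0525), CN replicate 2 (-0.30, 0.0897) or E1 replicate 2 (-0.27, 0.0865), and in a fit of the CN and E1 libraries alone (-0.32, 0.101). The responses differed by -0.41 ± 0.11 (adjusted p = 0.0307). That call was lost with library totals as the scaling (adjusted p = 0.061), and on leaving out CN replicate 1 (0.0777), E1 replicate 1 (0.0822), E0 replicate 1 (0.0992), E0 replicate 2 (0.0811), E2 replicate 1 (0.103) or E2 replicate 2 (0.0832).

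Icam1 (ENSMUSG00000037405, chromosome 9, 21015985 to 21028817, plus strand) encodes ICAM-1, the ligand of LFA-1 and Mac-1. It stood at 18.1 CPM in both CN libraries, 192 and 182 CPM in E1, 15.2 and 18.6 CPM in E0, and 47.7 and 56.6 CPM in E2. CN and E0 overlapped at the low end, E2 was between, and E1 was highest. It rose by 3.37 ± 0.12 in E1 (10.3-fold, adjusted p = 6.63e-07, edgeR) and by 1.62 ± 0.11 in E2 (3.08-fold, adjusted p = 3.41e-05). The rise in E2 was the smaller one (difference -1.75 ± 0.16, adjusted p = 0.000149). Of the 9, Icam1 was thus the one that rose in both experiments. Its 3' end shares 511 bases, 11.7% of its exons, with the antisense gene Gm47079, which is not among the genes of the deposited counts. Reads of the 2 cannot be told apart there without the strand setting.

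Levels of the 9 genes were set against each other only per kilobase of the principal transcript (RPKM). The marker sums above were not divided by length. In CN, Itgb2 (564 ± 37.3, SD, n = 2 here and below), Selplg (539 ± 20.9) and Itgam (497 ± 44.8) led, followed by Itgb7 (374 ± 37.0), Itgb1 (123 ± 0.345), Itgal (117 ± 11.1), Itga4 (45.9 ± 1.90), Itgax (36.3 ± 8.46) and Icam1 (7.13 ± 0.00716). In E1, Itgb7 led at 703 ± 105, and Icam1, at 73.7 ± 2.64, passed Itgax at 30.6 ± 6.66. In E2, Itgam led at 785 ± 56.2 and Itgal was down to 37.4 ± 2.70. Itga4 at 20.5 ± 2.34 and Icam1 at 20.6 ± 2.49 did not differ beyond their spread in E2. With the length of all exons merged, Selplg in CN moved from 539 to 234, because its exon union is 4272 bases long and its principal transcript 1855, so its place among the 9 depends on which transcript was read.

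The comparisons across experiments join group and experiment, which cannot be told apart. In E0 versus CN, 4 of the 9 were called, against 25.4% of all genes (13.5% higher and 11.9% lower), with Itgax higher (0.74 ± 0.17, adjusted p = 0.0166, edgeR) and Selplg (-0.48 ± 0.08, 0.00412), Itgb2 (-0.34 ± 0.10, 0.0406) and Itgb1 (-0.22 ± 0.07, 0.0411) lower. Selplg alone kept its call on leaving out each library in turn. Itgax was not called without CN replicate 2 (0.52, adjusted p = 0.0734), E0 replicate 1 (0.75, 0.0559) or E0 replicate 2 (0.72, 0.0665), and the count of the 9 called went to between 1 and 4. The count was 1 without CN replicate 2, E0 replicate 1 or E0 replicate 2, and 2 without CN replicate 1 or E2 replicate 1. Of 16 monocyte, macrophage and dendritic cell markers, 10 were also higher and 1 lower in E0, although their sums overlapped (944 to 1061 CPM in CN and 1052 to 1101 in E0), and their part in the higher Itgax was not tested. In E2 versus E1, where 53.9% of all genes were called (27.3% higher and 26.6% lower), Itgam (0.78) and Itgax (0.58) were higher and Itga4 (-2.22), Itgb7 (-1.96), Icam1 (-1.84), Itgal (-1.49) and Selplg (-0.89) lower. With library totals as the scaling, the higher share of all calls went from 53% to 66.8% in E0 versus CN and from 50.6% to 63.6% in E2 versus E1, where the median of all genes moved from 0.018 to 0.161. The Itgax call in E2 versus E1 was lost without E1 replicate 2 (0.37, adjusted p = 0.106), E2 replicate 1 (0.58, 0.0782) or E2 replicate 2 (0.59, 0.0753).

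Over the 8 libraries, and among 8461 genes with a mean of at least 10 CPM, the gene whose log2 level ran closest is given for 8 of the 9. It was Cerkl for Itga4 (Pearson r = 0.991), Aifm2 for Itgb1 (0.988), Cabin1 for Itgb7 (0.994), Plagl2 for Itgam (0.993), Cask for Itgal (0.996), Abca7 for Itgb2 (0.981), Dpysl2 for Itgax (0.981) and Cept1 for Icam1 (0.995). Among the 9 themselves, Itga4 and Itgb7 went together (r = 0.95), as did Itgal and Selplg (0.94), and Itgam and Itgal went opposite ways (-0.97). These describe 8 libraries that share 4 groups and 2 experiments.

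The other genes of leukocyte adhesion are given by list, each count with its share of the genes tested, to be read beside 9.19% of all genes higher and 8.08% lower in E1, and 17% and 18.5% in E2. Other integrin subunits were tested for 12 of 19 listed genes. In E1, 1 rose (8.33%) and 3 fell (25%), and in E2, 4 rose and 4 fell (33.3% each), with medians of -0.07 and -0.33 beside -0.01 and -0.02 for all genes. Itga5, the α chain of the fibronectin receptor, rose in both, from 11.9 and 10.5 to 21.1 and 20.3 CPM in E1 (0.88 ± 0.11, adjusted p = 0.00104) and from 7.85 and 9.45 to 51.4 and 47.2 in E2 (2.51 ± 0.12, 5.43e-06). The rise in E2 was larger (difference 1.63 ± 0.16, adjusted p = 0.000246). Itgb5, a vitronectin receptor chain, fell in E2 from 9.51 and 13.9 to 1.02 and 1.08 CPM (-3.48 ± 0.47). It also fell in E1, from a mean of 4.07 to 1.22 CPM (-1.75 ± 0.45, adjusted p = 0.0318), though not without CN replicate 1 (0.124), CN replicate 2 (0.0546), E2 replicate 1 (0.0595) or E2 replicate 2 (0.0589), or with the 2 groups alone (0.0937). Itga2, the collagen receptor chain, fell in E2 from 45.4 and 32.8 to 21.0 and 15.8 CPM (-1.08 ± 0.18). Itgav (-0.49) fell in E1, and Itga6 fell in E1 (-0.82) and in E2 (-0.53), the latter not called without E0 replicate 1 (adjusted p = 0.101), E0 replicate 2 (0.0533) or E2 replicate 2 (0.138). The E2 counts went down to 2 and 2 on leaving out E0 replicate 1 or E2 replicate 2, with 2 higher also without E2 replicate 1.

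Ligands and counter-receptors were tested for 9 of 18 listed genes, of which 2 rose (22.2%) and 1 fell (11.1%) in E1, and 2 rose (22.2%) and 3 fell (33.3%) in E2. The medians were 0.11 and -0.31. Fn1, fibronectin, the matrix ligand of α4β1 and α5β1, stood at 40.9 and 23.1 CPM in CN and 0.561 and 0.491 in E1 (-5.92 ± 0.43, adjusted p = 3.69e-05), and at 14.4 and 27.0 in E0 and 11.2 and 10.0 in E2. The latter difference (-0.97 ± 0.32, adjusted p = 0.047) was lost without E0 replicate 2 (0.302), E2 replicate 1 (0.135), E2 replicate 2 (0.199), E1 replicate 1 (0.0579) or E1 replicate 2 (0.056), and with DESeq2 (0.0762). Vcam1, the α4β1 ligand, named here after its values were seen, rose in E1 from 0.607 to 5.83 CPM on average (3.25 ± 0.40, adjusted p = 0.000754). Cdh1, E-cadherin, the ligand of αEβ7, rose in E2 from 1.53 and 1.75 to 12.5 and 11.8 CPM (2.88 ± 0.33). Icam2, a further LFA-1 ligand, fell in E2 from 18.4 and 16.1 to 11.2 and 10.4 CPM (-0.68 ± 0.11). It was higher in E1 (0.41 ± 0.11, adjusted p = 0.0303), a call lost without either CN library (0.143 and 0.0536), E1 replicate 1 (0.152), E2 replicate 1 (0.0604) or E2 replicate 2 (0.0523), and with library totals (0.0549) or the 2 groups alone (0.062). The count higher in E1 was 1 without CN replicate 1, E1 replicate 1, E2 replicate 1 or E2 replicate 2. In E2 it was 1 without E2 replicate 1 or E2 replicate 2, and the count lower was 1 without E0 replicate 2 or E2 replicate 1.

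**Figure D4:**
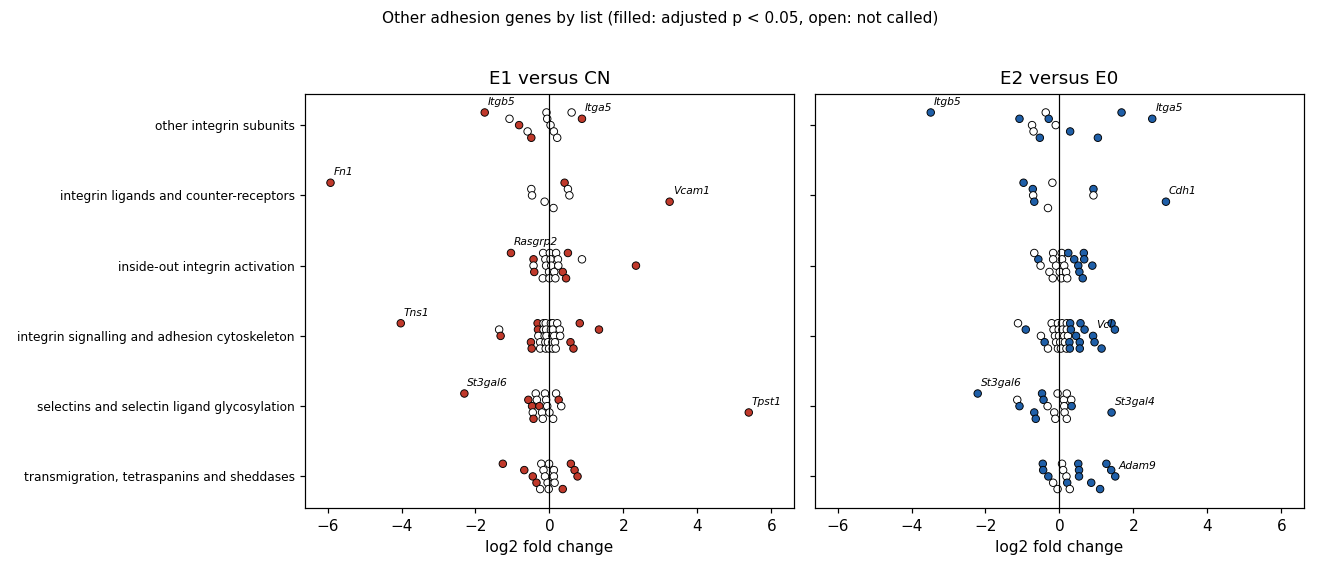
Log2 fold changes of the other adhesion genes by list in E1 versus CN (left) and E2 versus E0 (right), each point a gene, filled where the adjusted p was below 0.05 and open where not; vertical offsets only separate points. Fn1 (-5.92) and Tpst1 (5.39) lie farthest from 0 in E1, and Itgb5 (-3.48) and Cdh1 (2.88) in E2.

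Genes of inside-out activation, the switch of integrins to the binding state, were listed together with inhibitors of it, so their counts do not show more or less activation. They were called higher in 4 (17.4%) and lower in 3 (13%) of 23 in E1, and higher in 8 (34.8%) and lower in 1 (4.35%) in E2. The medians were 0.03 and 0.07. Talin-1 (Tln1) and kindlin-3 (Fermt3), named after their values were seen, were not called in either comparison (Tln1 -0.17 and 0.13, Fermt3 0.16 and 0.21). Fermt3 in E2 was called with DESeq2 (adjusted p = 0.0284) and with the 2 groups alone (0.0299). Both genes were called in E1 and in E2 with the replicate number as a block within each experiment. Rasgrp2, the exchange factor CalDAG-GEFI that loads Rap1, fell in E1 from 220 and 174 to 106 and 84.8 CPM (-1.04 ± 0.13, adjusted p = 0.000876). Rassf5, the Rap1 effector RAPL, fell in E1 from 664 and 663 to 492 and 492 CPM (-0.43 ± 0.07). In E2 it was higher (0.24 ± 0.07, adjusted p = 0.0276), though not without E0 replicate 1 (0.13), E0 replicate 2 (0.119), E2 replicate 1 (0.133) or E2 replicate 2 (0.0853). The 4 called higher in E1 were Sharpin, an inhibitor of integrin activation (0.50 ± 0.06, from a mean of 69.0 to 97.8 CPM, adjusted p = 0.000705), Filip1l, named after its values were seen (2.34 ± 0.30, from 1.49 to 7.61 CPM), Dok1, whose product competes with talin for β tails (0.45 ± 0.11), and the GTPase gene Rap1b (0.36 ± 0.09, adjusted p = 0.0283). The calls of Dok1 and Rap1b were lost without CN replicate 1 (adjusted p = 0.105 and 0.0611), CN replicate 2 (0.075 and 0.121) or E1 replicate 1 (0.115 and 0.144), and with library totals (0.066 and 0.082). In E2, Rap1b rose from 338 and 361 to 519 and 560 CPM (0.63 ± 0.09, adjusted p = 0.00132) together with Rap1gap2, which switches Rap1 off (0.66 ± 0.09), and Rasa3, an inhibitor of Rap1, fell from 555 and 532 to 374 and 359 (-0.57 ± 0.08). The E1 higher count went to 2 without CN replicate 2 or E1 replicate 1.

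Genes of integrin signalling and the adhesion cytoskeleton were called higher in 4 (10.8%) and lower in 6 (16.2%) of 37 in E1, and higher in 14 (37.8%) and lower in 2 (5.41%) in E2. The medians were -0.04 and 0.15. The Src-family kinase gene Fgr, which acts below β2 integrins, rose in both, from 307 and 261 to 499 and 503 CPM (0.82 ± 0.09) and from 278 and 289 to 545 and 553 CPM (0.95 ± 0.09). The difference between these responses was not called (0.13 ± 0.12, adjusted p = 0.49). Vcl, vinculin, rose in E2 from 546 and 494 to 1034 and 926 CPM (0.91 ± 0.09) and was lower in E1 (-0.48 ± 0.09, not called without CN replicate 1, adjusted p = 0.0639). The responses differed by 1.40 ± 0.13 (adjusted p = 0.000206). In E1, the tensin gene Tns1 went from 14.3 and 13.2 to 0.681 and 1.02 CPM (-4.02 ± 0.23) and Actn1, α-actinin-1, from 73.3 and 67.8 to 29.8 and 26.8 (-1.32 ± 0.13). In E2, Tns1 was 0.57 ± 0.19 higher (adjusted p = 0.0492), not called under 6 of 14 alternatives, among them leaving out E0 replicate 1 (0.25), E2 replicate 1 (0.143), E2 replicate 2 (0.175), CN replicate 1 (0.0706) or CN replicate 2 (0.0647). The E2 higher count went to 8, 7, 6 and 7 without E0 replicate 1, E0 replicate 2, E2 replicate 1 and E2 replicate 2. The E1 counts went as low as 1 higher without CN replicate 2 and 2 lower without CN replicate 1, and the lower count was 3 without E1 replicate 2, E2 replicate 1 or E2 replicate 2.

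Selectins and the enzymes that build the selectin-binding sugars and sulphates of PSGL-1 were listed with Cd44, Glg1, Spn and Cd24a. Genes of this list were called higher in 2 (10.5%) and lower in 5 (26.3%) of 19 in E1, and higher in 2 (10.5%) and lower in 6 (31.6%) in E2. The medians were -0.18 and -0.11. Tpst1, a tyrosine sulphotransferase of the type that acts on PSGL-1, rose in E1 from 0.538 and 0.649 to 25.6 and 24.1 CPM (5.39 ± 0.18, 42.0-fold, adjusted p = 4.18e-07). Tpst2, the other such gene of the list, named after its values were seen, was not called in E1 (adjusted p = 0.997, edgeR). Its mean was 35.5 CPM in both CN and E1, 29.8 in E0 and 33.0 in E2, above that of Tpst1 in every group. In E2, Tpst1 was not called (-0.32 ± 0.17, adjusted p = 0.192), and the responses differed by -5.71 ± 0.24 (adjusted p = 2.57e-06). Gcnt1, which makes the core-2 branch that carries the selectin-binding sugar, was lower in E1 (636 and 715 against 468 and 506 CPM, -0.47 ± 0.10), a call that did not hold without CN replicate 2 (adjusted p = 0.0545) or E1 replicate 1 (0.0653). It was lower in E2 too, from a mean of 867 to 626 CPM (-0.47 ± 0.10, adjusted p = 0.00637), though not called without E2 replicate 1 (0.0575). The sialyltransferase gene St3gal4 was lower in E1 (-0.27 ± 0.07, adjusted p = 0.0375), a call lost in the 2-group fit (0.132) and on leaving out any library but E1 replicate 1 (0.0629 to 0.14). In E2, St3gal4 rose from 201 and 203 to 546 and 526 CPM (1.41 ± 0.07, adjusted p = 9.15e-06) while Fut4, a fucosyltransferase gene, fell from 53.0 and 57.0 to 31.3 and 37.5 (-0.68 ± 0.14). Cd44, which also binds selectins and hyaluronan, fell in E2 from 1077 and 1097 to 675 and 717 CPM (-0.64 ± 0.08). The E1 higher count was 1 without CN replicate 2, E1 replicate 1 or E1 replicate 2, and the lower count 3 without CN replicate 2.

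Genes of transmigration, tetraspanins and sheddases were called higher in 4 and lower in 4 of 18 in E1 (22.2% each), and higher in 9 (50%) and lower in 3 (16.7%) in E2. The medians were -0.04 and 0.24. Plaur, the urokinase receptor, which associates with β2 integrins, fell in E1 from 172 and 154 to 107 and 97.5 CPM (-0.68 ± 0.07, adjusted p = 0.000303) and rose in E2 from 95.2 and 94.5 to 252 and 250 CPM (1.40 ± 0.07, 8.34e-06). The 2 responses differed by 2.08 ± 0.10 (adjusted p = 4.99e-06). The tetraspanin gene Cd53 rose in E2 from 84.9 and 93.2 to 206 and 223 CPM (1.27 ± 0.07). The metalloproteinase gene Adam9 rose in both experiments (0.68 ± 0.12 and 1.51 ± 0.12) and Adam8 fell in both, from 2771 and 2763 to 2018 and 2034 CPM and from 2533 and 2449 to 1884 and 1759 (-0.45 ± 0.08 each). Adam17, a sheddase of several leukocyte surface proteins, rose in E1 from 79.4 and 75.0 to 112 and 119 CPM (0.58 ± 0.06). In E2, Adam17 was 0.21 ± 0.06 higher (adjusted p = 0.0288), but not when any 1 library of E0 or E2 was left out (0.0775 to 0.161). The E1 lower count was 2 without E1 replicate 2, and the E2 higher count 6 without E0 replicate 1.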

How the data were processed

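The authors deposited unnormalized read counts, 1 row per Ensembl gene. STAR, featureCounts and the mm10 build are named in the submitters' processing notes. Their versions, the annotation and the strand setting were not given in the sources used here. Libraries were made with a TruSeq Stranded mRNA kit, per the labels' protocols. An unnamed row that equalled the column totals (100% of the named counts) was left out. Symbols matched 15730 of 15917 identifiers, and the other 187 held 1.2% of counts. Positions and lengths came from GENCODE M21. Promoter sequences came from RefSeq, and protein sequences were not used here.

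Tests used edgeR 4.0.16 under R 4.3.3 (filterByExpr, which removed 4 genes, TMM scaling, 1 mean per group over 8 libraries, 4 residual degrees of freedom, quasi-likelihood F test, two-sided), adjusted by Benjamini-Hochberg over 15913 genes. Levels are CPM after TMM scaling, given per library or as mean ± SD. A count of 0 would allow up to 3 counts, 0.0316 to 0.0493 CPM, which covers counting error only. Alternatives were library totals, RLE size factors, DESeq2 1.42.0, no filter, a replicate block, fits of 2 groups alone and leaving out each library. Extending these to the other lists, and using the length of merged exons, was chosen after seeing the data.

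The 9 genes and all lists were chosen with earlier results of these data known. Besides the 9, up to 3 called genes each way were taken from each list where the higher group reached 10 CPM, the text naming part of them, and the 2 nearest patterns per gene by correlation of log2 CPM (prior count 2), and a few results that these rules would name are not reported here. The fit was checked on simulated counts that held known changes.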

Additional observations from a re-analysis of the deposited data

Results flagged for a closer look

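For 7 of the 9 genes the response to the type 2 mixture (E2 minus E0) and the response to IFN-gamma and TNF-alpha (E1 minus CN) differed by the test of the difference itself in edgeR's fit over 8 libraries. The same test called 25.2% of all genes (11.3% higher and 14% lower). The log2 difference was -2.32 for Itga4 and -1.61 for Itgb7, which rose in E1 and fell in E2. It was 0.90 for Itgam, -1.34 for Itgal and 0.56 for Itgb2, which were called in E2 alone, and -0.41 for Selplg, which fell in both. It was -1.75 for Icam1, which rose in both. The calls of Itgb2 and Selplg were lost on leaving out 1 library, as given in the report. The 2 responses came from separate experiments with different control media, and their part in these differences cannot be told apart from that of the cytokines.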

How the results depend on the processing

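The directions and calls of Itga4, Itgb7, Icam1, Itgam and Itgal in E1 versus CN, E2 versus E0 and the difference of responses were the same under all alternatives run. Over every member, 119 of 126 values for E1 versus CN, 115 of 126 for E2 versus E0 and 101 of 117 for the difference kept both. Signs turned where the value was near 0: for Itgb1, to -0.07 in E1 versus CN with library totals and to -0.0033 in E2 versus E1 on leaving out a library. For Itgax, leaving out a library gave -0.49 to 0.03 in E1 versus CN and -0.43 to 0.09 in the difference. In E0 versus CN it gave -0.01 to 0.22 for Itga4 and -0.25 to 0.04 for Icam1. The difference between the Fgr responses ran from -0.0039 to 0.25 over the alternatives.

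With the replicate number as a block within each experiment, the genes called went to 5520 in E1 versus CN, 8514 in E2 versus E0, 6821 in the difference of responses and 6113 in E0 versus CN, from 2749, 5655, 4018 and 4038. Same-numbered libraries deviated together (r = 0.626 for CN and E1, 0.604 for E0 and E2), but with 2 pairs per experiment and no label on it the numbers were not taken as pairs. The replicate number also separated the sexes in every group. The block thus holds the difference of sex, which the main fit left in its spread, and calls that differ between the 2 fits depend on this choice. Under the block, Itgax was also called in E1 versus CN (-0.24) and E2 versus E0 (-0.40), and Itgb1 in the difference (0.24). So were Tln1 (adjusted p = 0.017 in E1 versus CN and 0.0352 in E2 versus E0) and Fermt3 (0.0143 and 0.00249). Leaving out 1 library gave 3334 to 5929 genes in E2 versus E0 and 2235 to 4274 in E0 versus CN. Of the 9, the number called in E0 versus CN was 2 with library totals, 2 with the 2 groups alone, 7 with the block, and 1 to 4 on leaving out a library. Under the block 1 or more list counts also moved by over 1.5 times, among them inside-out activation genes higher in E1, from 4 to 10. The ratio of Itga4 to Itgb1 and Itgb7 in E2 versus E0 was -0.97 without division by length and -0.89 with it. Each of the 9 had at least 947 reads in every library, and no alternative with reduced depth was run.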
